A study of Mus musculus with 10 samples.

Results

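Fatty acid binding, uptake and activation genes were followed in liver RNA of tumour-bearing mice with and without cachexia, the severe loss of body weight that accompanies many cancers. The set holds 10 genes of the 43629 that the count table lists, and all 10 were among the 14143 genes with enough counts to be tested. The members were chosen by name, with the measured difference between cachectic and non-cachectic livers already known, so every value of that difference is given here as a description and is no independent support for it. They are Dbi, Fabp1, Fabp2, Fabp4, Cd36, Slc27a2, Slc27a5, Acsl1, Acsl5 and Scp2.

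Long-chain fatty acids enter hepatocytes from the blood, partly through membrane proteins such as the scavenger receptor CD36 and the fatty acid transport proteins of the SLC27 family. Inside the cell they are carried by fatty acid binding proteins and are made reactive by acyl-CoA synthetases, which join them to coenzyme A. The acyl-CoA esters are then bound by acyl-CoA binding protein, the product of Dbi, and pass to oxidation in mitochondria and peroxisomes or to the synthesis of triglycerides and phospholipids. In liver, many genes of this route are textbook targets of PPARα, the nuclear receptor that responds to fatty acids during fasting.

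Poly(A) RNA was sequenced from the livers of 5 NCACS (non-cachectic) and 5 CACS (cachectic) male KL mice, 1 library a mouse. In KL mice conditional alleles, Lkb1 flox/flox among them, on an FVB-backcrossed background are recombined in the lung by an intranasal adenovirus that carries Cre under the CMV promoter, which is not specific to a cell type, given at 12 to 20 weeks of age. Mice of both groups had therefore received the virus, there was no tumour-free group, and the groups differed in weight loss, with more than 15% as the limit for cachexia. NCACS mice 11 to 15 had weight changes between -3 and -14%, and CACS mice 16 to 20 between -29 and -33%. The age at which livers were taken is not given in the sources used here.

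Total counts per liver lay between 31459179 and 40746178, and the 10 genes together held between 0.529 and 1.13% of them. The hepatocyte markers (Alb, Apoa1, Ttr, Tat, Serpina1c, Cps1 and Asgr1) were all expressed and summed to between 65336 and 132152 CPM (counts scaled to a common library size, after TMM) in these livers. NCACS mice 15 and 13 stood apart with the lowest sums, 65336 and 76151 CPM, against at least 100638 CPM in the other 8 livers. Most of each sum was Alb, at 45712 and 52588 CPM in these mice against at least 76682 CPM in the others. The other markers did not all follow. Cps1 and Ttr were lowest in mouse 15 (1629 and 5598 CPM), whereas Serpina1c was highest in mouse 13 (3252 CPM). The comparison is therefore also given without both of these mice. In whole liver, fewer cells of a type and less RNA per cell cannot be told apart.

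The genes differed widely in how much transcript the liver held. Per kilobase of exon (RPKM, mean over 10 livers), Fabp1, the fatty acid binding protein of hepatocytes, was the most abundant at 5014, followed by Scp2 at 515, Dbi at 392, Slc27a5 at 366 and Slc27a2 at 350. Acsl1 had a level of 102 RPKM, Acsl5 of 74.9 and Fabp2 of 53.0. Cd36, at 8.32 RPKM, and Fabp4, at 1.75 RPKM, were the least abundant. The length used is the union of all annotated exons of a gene, such as 10483 bases for Acsl1 and 4489 for Fabp4, and the order depends on it. In RPKM the order was the same in 10 of 10 livers between Fabp1 and Scp2, Slc27a2 and Acsl1, Fabp2 and Cd36, and Cd36 and Fabp4. In CPM, Acsl1 was above Slc27a2 in NCACS mouse 12 (1377 against 1314) and CACS mouse 18 (2069 against 1945). The other neighbours in this order changed places between livers and were in the stated order in only 5 to 7 of 10. For the genes Dbi and Slc27a5 the order followed the group. Dbi was above Slc27a5 in every NCACS liver (means 507 against 379 RPKM) and below it in every CACS liver (276 against 353 RPKM). Acsl5 was above Fabp2 in every NCACS liver (means 95.7 against 47.1 RPKM) but not in every CACS liver (54.2 against 59.0 RPKM).

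In edgeR's quasi-likelihood test over all genes, with Benjamini-Hochberg adjustment and a threshold of 0.05, Dbi and Acsl5 were lower in CACS livers and the other 8 members did not pass. Over all genes tested, 3.80% passed the threshold, 1.89% as higher and 1.92% as lower in CACS livers. Dbi and Acsl5 were also the 2 members whose groups did not overlap, which 7.07% of all tested genes showed in either direction. With DESeq2 the same 2 members passed, against 8.87% of the genes it tested. Because the members were listed with this contrast known, nothing is read from these shares. Without NCACS mice 13 and 15, Dbi and Acsl5 were at -0.86 and -0.93 on the log2 scale (adjusted p = 0.0231 and 0.0290 by edgeR's test) and were again the 2 members that passed, with Fabp1 at -1.04 (adjusted p = 0.183) and Cd36 at -0.74 (adjusted p = 0.256). In all 10 livers the median log2 fold change was -0.13 over the 10 members and -0.0052 over all genes tested.

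**Figure D1:**
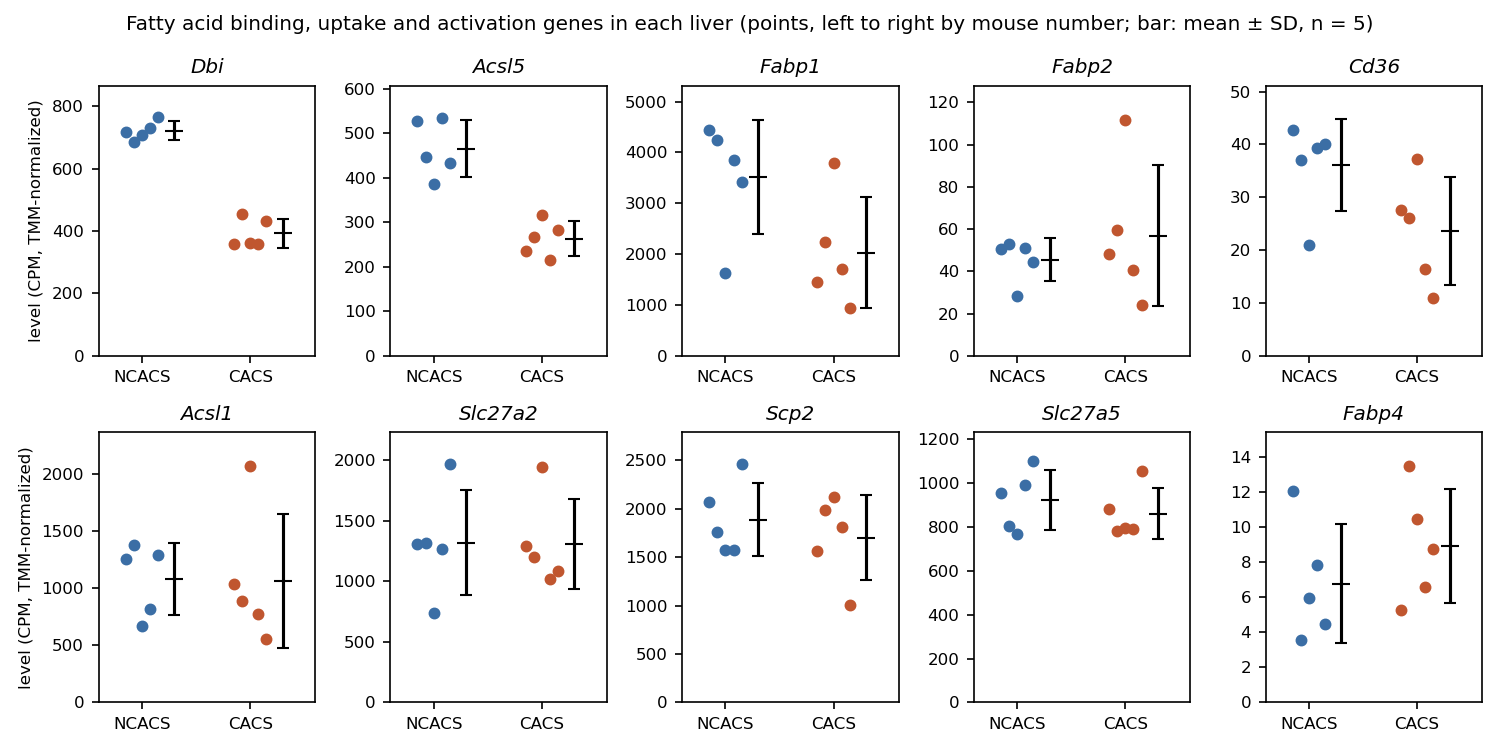
Level of each gene in each of the 10 livers, in TMM-normalized CPM on a linear axis that starts at 0. Points are single mice, ordered from left to right by mouse number within NCACS (11 to 15, blue) and CACS (16 to 20, orange), and the bar beside them is the mean ± SD (n = 5). For Dbi and Acsl5 all CACS points lie below all NCACS points, whereas for the other 8 genes the groups overlap.

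Promoter sequences are shown first for Acsl5, which was lower in CACS livers, and for 3 genes, Fabp1, Fabp2 and Cd36, whose levels varied together from liver to liver. Each window runs from 250 bases before to 50 bases after a transcription start in RefSeq (GRCm38.p6), is written 5′ to 3′ on the gene's strand, and is in lower case except for motif matches. The windows lie at chr19:55253119-55253418 on the forward strand (Acsl5), chr6:71199629-71199928 on the forward strand (Fabp1), chr3:122894822-122895121 on the forward strand (Fabp2) and chr5:17835847-17836146 on the reverse strand (Cd36). The Acsl5 and Cd36 windows are inside the annotated gene, around the start of a transcript that begins downstream of the outermost one. Capitals mark matches on either strand to AGGTCA, the half-site of nuclear receptors, to AGGNCANAGGNCA, which is a pair of half-sites spaced by a base (a DR1, the arrangement bound by PPARα with RXR and by HNF4α), to TCACNCCAC, a sterol response element, or to TATAAA. A match to the spaced pair holds 2 matches to forms of the half-site, so the motifs overlap.
Acsl5: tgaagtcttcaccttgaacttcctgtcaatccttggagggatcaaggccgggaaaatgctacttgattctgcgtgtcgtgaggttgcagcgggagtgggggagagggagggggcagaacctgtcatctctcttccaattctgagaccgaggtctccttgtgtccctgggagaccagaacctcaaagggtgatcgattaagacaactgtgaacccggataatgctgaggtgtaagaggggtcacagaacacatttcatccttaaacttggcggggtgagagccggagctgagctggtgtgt
Fabp1: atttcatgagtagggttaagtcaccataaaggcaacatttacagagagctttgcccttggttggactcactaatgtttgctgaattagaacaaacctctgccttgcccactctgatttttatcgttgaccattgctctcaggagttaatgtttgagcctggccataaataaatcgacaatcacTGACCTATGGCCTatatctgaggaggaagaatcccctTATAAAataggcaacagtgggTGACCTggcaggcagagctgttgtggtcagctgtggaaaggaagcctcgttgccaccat
Fabp2: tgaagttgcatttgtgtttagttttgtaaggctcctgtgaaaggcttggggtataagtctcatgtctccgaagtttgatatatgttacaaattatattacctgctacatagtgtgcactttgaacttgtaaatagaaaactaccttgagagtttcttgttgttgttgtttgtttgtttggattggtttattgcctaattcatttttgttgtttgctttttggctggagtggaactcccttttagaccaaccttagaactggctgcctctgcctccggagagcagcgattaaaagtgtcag
Cd36: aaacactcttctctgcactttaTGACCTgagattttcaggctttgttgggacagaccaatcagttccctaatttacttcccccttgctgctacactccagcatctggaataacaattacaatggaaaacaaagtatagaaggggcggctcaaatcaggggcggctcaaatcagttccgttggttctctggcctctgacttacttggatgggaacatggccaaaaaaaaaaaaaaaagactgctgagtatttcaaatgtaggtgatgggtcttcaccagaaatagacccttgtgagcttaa

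The Fabp1 window held the spaced pair as TGACCTATGGCCT, read on the gene's strand from -67 to -55 relative to the start, together with a second half-site from -9 to -4 and TATAAA from -30 to -25. The Cd36 window held 1 half-site, from -228 to -223, and the Acsl5 and Fabp2 windows held no match to the 4 motifs. RefSeq promoters were found for 8 of the 10 members, with 10 windows in all, and not for Fabp4 or Slc27a5. Among these 8 genes the spaced pair was in Fabp1 alone, half-sites were also in Slc27a2 and Scp2, and the sterol element was in the second Acsl1 window. Over 32851 promoters of the same length, 0.381% held the spaced pair, 16.3% the half-site, 1.24% the sterol element and 13.6% TATAAA. The matches are descriptions of letters, not of binding. In base composition the windows differed, with 9 CG dinucleotides in that of Acsl5 and 3 each in those of Fabp1, Fabp2 and Cd36.

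Dbi encodes acyl-CoA binding protein, also known as diazepam binding inhibitor. This small cytosolic protein holds long-chain acyl-CoA esters for the enzymes that use them, and it can also be secreted. The gene lies on the reverse strand of chromosome 1 of GRCm38 (120113280 to 120121078, ENSMUSG00000026385). Its level in NCACS mice 11 to 15 was 718, 684, 707, 731 and 765 CPM. CACS mice 16 to 20 had 358, 454, 361, 357 and 433 CPM. The groups were far apart, with a gap between the highest CACS liver, mouse 17, and the lowest NCACS liver, mouse 12. NCACS livers averaged 721 ± 30.0 CPM (SD, n = 5) and CACS livers 393 ± 47.2 CPM (SD, n = 5), so that the mean fell by 45.5%. On the log2 scale the difference was -0.88 (standard error 0.109, 95% interval -1.12 to -0.64, adjusted p = 0.00543 by edgeR's quasi-likelihood test), and Dbi ranked 11 by p among all genes tested.

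Dbi was also among the steadiest genes within a group. After each group's mean had been subtracted, its SD was 0.127 on the log2 scale, and 10.4% of all tested genes had a smaller one. Fits on 9 mice, omitting a different one each time, gave log2 fold changes from -0.93 to -0.84 with adjusted p between 0.00409 and 0.0219 in the same edgeR test, and the call remained in each of the 10.

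Acyl-CoA synthetases carry out the activation step. Acsl5, a synthetase of mitochondria and endoplasmic reticulum that is known from intestine and liver, lies on the forward strand of chromosome 19 (55251938 to 55297720, ENSMUSG00000024981). Its level in NCACS mice 11 to 15 was 527, 446, 385, 535 and 434 CPM. In CACS mice 16 to 20 it was 236, 268, 316, 216 and 282 CPM. The highest CACS liver, mouse 18, was below the lowest NCACS liver, mouse 13. NCACS livers averaged 466 ± 64.2 CPM and CACS livers 263 ± 39.1 CPM (SD, n = 5 each). The difference was -0.82 on the log2 scale (standard error 0.136, 95% interval -1.12 to -0.53, adjusted p = 0.0137 by edgeR's test, rank 65 by p among all genes tested).

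The annotation places Zdhhc6 across part of Acsl5 on the opposite strand, and whether the counting used strand is not given in the sources used here. Zdhhc6 averaged 75.3 ± 10.1 CPM in NCACS mice against 79.4 ± 2.71 CPM in CACS mice (SD, n = 5 each; log2 fold change 0.08, adjusted p = 0.699 by edgeR's test). Its largest count in a liver was 3160, against at least 7677 for Acsl5, and the part of overlapping reads in the Acsl5 counts was not tested.

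Acsl1, the main long-chain acyl-CoA synthetase of liver and adipose tissue, lies on the forward strand of chromosome 8 (46471037 to 46536051, ENSMUSG00000018796). NCACS mice 11 to 15 had 1259, 1377, 671, 818 and 1291 CPM, and CACS mice 16 to 20 had 1037, 884, 2069, 778 and 552 CPM. The highest and the lowest of the 10 livers, mice 18 and 20, were both CACS, and the other CACS livers lay within the NCACS range. The log2 fold change was -0.03 (standard error 0.331, 95% interval -0.75 to 0.70, adjusted p = 0.973 by edgeR's test), an interval that leaves room for differences of either sign. Without CACS mouse 18 it was -0.41, and without CACS mouse 20 it was 0.14.

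**Figure D2:**
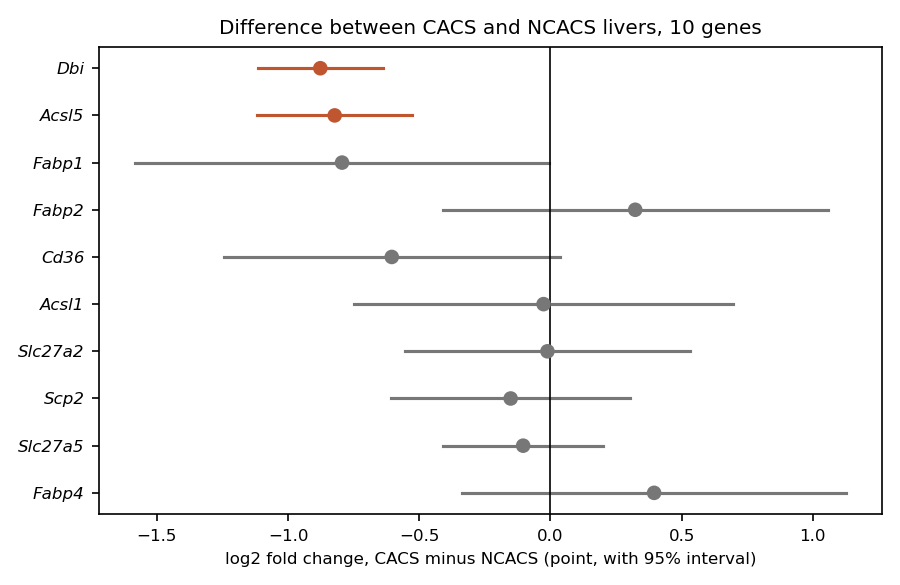
Log2 fold change of each gene, CACS minus NCACS, as a point with its 95% interval from edgeR's fit over all genes (n = 5 livers a group), with a vertical line at 0. Dbi (-0.88) and Acsl5 (-0.82), in orange, passed the threshold. The 8 genes in grey did not, and the intervals of Fabp1, Fabp2, Acsl1, Cd36, Slc27a2 and Fabp4 are more than 1 log2 unit wide.

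Of the binding proteins, Fabp1 (forward strand of chromosome 6, 71199827 to 71205023, ENSMUSG00000054422) encodes the liver form that carries fatty acids in the hepatocyte cytosol. Its level was 4439, 4239, 1638, 3860 and 3410 CPM in NCACS mice 11 to 15. CACS mice 16 to 20 had 1460, 2241, 3793, 1714 and 934 CPM. NCACS mouse 13 was as low as the CACS livers, and CACS mouse 18 was within the range of the other NCACS livers. Means were 3517 ± 1121 and 2028 ± 1093 CPM (SD, n = 5 each), with a log2 fold change of -0.79 (standard error 0.362, 95% interval -1.58 to -0.0040, unadjusted p = 0.0490 and adjusted p = 0.229 by edgeR's test over all genes). Fabp1 thus did not pass, although its fitted difference was close in size to those of Dbi and Acsl5, and its SD within groups, 0.674 on the log2 scale, exceeded that of 91.1% of tested genes. It was -1.15 without CACS mouse 18 and -0.61 without CACS mouse 20.

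Fabp2 encodes the binding protein typical of the intestinal epithelium and lies on the forward strand of chromosome 3 (122895072 to 122899506, ENSMUSG00000023057). Its level was 50.7, 53.0, 28.2, 51.1 and 44.3 CPM in NCACS mice 11 to 15, and 48.3, 59.6, 112, 40.9 and 23.9 CPM in CACS mice 16 to 20. Mouse 18 stood far above the other 9 livers, and mouse 20 had the lowest level. Its log2 fold change of 0.32 (standard error 0.336, 95% interval -0.41 to 1.06, adjusted p = 0.618 by edgeR's test) became -0.07 without CACS mouse 18. Of 7 intestinal epithelium markers, Cdx2, Alpi and Sis were at 0 in every liver and all 7 summed to between 0.229 and 0.970 CPM.

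Fabp4, the binding protein of adipocytes, macrophages and endothelial cells, lies on the reverse strand of chromosome 3 (10204088 to 10208576, ENSMUSG00000062515) and was scarce, with 144 to 514 counts per liver. NCACS mice 11 to 15 had 12.1, 3.58, 5.95, 7.82 and 4.44 CPM, and CACS mice 16 to 20 had 5.27, 13.5, 10.5, 6.59 and 8.73 CPM. The groups overlapped over nearly their whole ranges, and the log2 fold change was 0.40 (standard error 0.335, 95% interval -0.34 to 1.13, adjusted p = 0.531 by edgeR's test). Adipocyte markers (Adipoq, Lep, Plin1, Retn, Cfd and Slc2a4, with 0 of 4 tested past the threshold) summed to 8.01 and 7.39 CPM in NCACS mouse 11 and CACS mouse 17, the 2 livers with the most Fabp4. In NCACS mouse 12, with the least Fabp4, they summed to 0.672 CPM. The 2 orders were not the same throughout, since the highest sum was that of CACS mouse 18 (8.77 CPM), and CACS mouse 19, with a sum of 6.73 CPM, had less Fabp4 than NCACS mouse 14, with 3.97 CPM. Over all livers the adipocyte sum was 0.672 to 8.01 CPM (NCACS) and 2.15 to 8.77 CPM (CACS). Macrophage markers had their lowest sum in CACS mouse 17 (128 CPM) and their highest in NCACS mouse 12 (381 CPM), with 325 CPM in NCACS mouse 11. Endothelial markers summed to 187, 203 and 200 CPM in NCACS mouse 11, CACS mouse 17 and NCACS mouse 12. The part of these cell types in the Fabp4 level was not tested.

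Scp2 encodes sterol carrier protein 2 and, from a longer transcript, the peroxisomal thiolase SCPx, which shortens branched fatty acids and bile acid precursors. On the reverse strand of chromosome 4 (108043839 to 108144998, ENSMUSG00000028603), it had 2069, 1757, 1568, 1576 and 2460 CPM in NCACS mice 11 to 15 and 1562, 1987, 2123, 1811 and 1009 CPM in CACS mice 16 to 20. CACS mouse 20 was lowest, and the other 4 CACS livers were between 1562 and 2123 CPM, close to or within the NCACS range. The log2 fold change was -0.15 (standard error 0.209, 95% interval -0.61 to 0.30, adjusted p = 0.727 by edgeR's test). Counts of the 2 isoforms cannot be separated in a table per gene, and the pseudogene Scp2-ps2 had at most 141 counts in a liver, against at least 35247 for Scp2. Podn, which overlaps Scp2 on the same strand, had at most 295.

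Uptake is represented by Cd36 and by a pair of SLC27 proteins. Cd36 (reverse strand of chromosome 5, 17781690 to 17888801, ENSMUSG00000002944), the scavenger receptor that takes up long-chain fatty acids, had 42.8, 37.1, 20.9, 39.3 and 40.0 CPM in NCACS mice 11 to 15 and 27.5, 26.2, 37.3, 16.5 and 11.02 CPM in CACS mice 16 to 20. As with Fabp1, NCACS mouse 13 was among the CACS livers and CACS mouse 18 among the NCACS livers. A fitted log2 fold change of -0.60 (standard error 0.293, 95% interval -1.25 to 0.04, adjusted p = 0.258 by edgeR's test) was -0.83 without mouse 18 and -0.42 without mouse 20. Endothelial markers, for cells that also express Cd36, summed to 148 to 211 CPM (NCACS) and 186 to 235 CPM (CACS), with 0 of 9 tested past the threshold. Macrophage markers summed to 211 to 381 CPM (NCACS) and 128 to 254 CPM (CACS), with 1 of 8, Cd5l, past the threshold (log2 fold change -0.90, adjusted p = 0.0374 by edgeR's test), and their part in the Cd36 level was not tested.

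Slc27a2 encodes FATP2, a transporter that is also a very long-chain acyl-CoA synthetase of peroxisomes and endoplasmic reticulum (forward strand of chromosome 2, 126552407 to 126588243, ENSMUSG00000027359). It had 1304, 1314, 739, 1271 and 1965 CPM in NCACS mice 11 to 15 and 1290, 1204, 1945, 1020 and 1083 CPM in CACS mice 16 to 20. The CACS values all lay inside the NCACS range, which mice 13 and 15 spanned. The log2 fold change was -0.01 (standard error 0.249, 95% interval -0.55 to 0.53, adjusted p = 0.985 by edgeR's test), and 0.18 without NCACS mouse 15.

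Slc27a5 encodes FATP5, the liver transport protein that doubles as bile acyl-CoA synthetase (reverse strand of chromosome 7, 12988346 to 12998192, ENSMUSG00000030382). Its level was 956, 807, 766, 993 and 1101 CPM in NCACS mice 11 to 15 and 880, 781, 796, 790 and 1054 CPM in CACS mice 16 to 20. All CACS values again fell inside the NCACS range. Its difference of -0.10 on the log2 scale (standard error 0.139, 95% interval -0.41 to 0.20, adjusted p = 0.718 by edgeR's test) had the narrowest interval among the members after those of Dbi and Acsl5.

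Once the mean of each group had been subtracted, which removes the difference between groups, 6 of the genes varied together over the 10 livers. These were Fabp1, Fabp2, Cd36, Acsl1, Slc27a2 and Scp2, a grouping made after their values were seen. On log2 CPM with each group's mean subtracted (10 livers, which share library depth and normalization across genes), their 15 pairs had Pearson r between 0.61 and 0.95 with a median of 0.76, and Fabp1 with Fabp2 was the highest. The remaining 4 genes (Dbi, Fabp4, Slc27a5 and Acsl5) had r between 0.04 and 0.65 over their 6 pairs, and the 24 pairs between the sets had r between -0.39 (Dbi with Acsl1) and 0.57. Since the sets were drawn from these same r values, nothing is read from the contrast between them. Acsl5 followed some of the 6 genes in part, with r of 0.57 with Fabp1, 0.51 with Slc27a2, 0.51 with Fabp2 and 0.46 with Cd36. It was 0.38 with Acsl1 and 0.03 with Scp2. Without NCACS mouse 15 the r of Acsl5 with Slc27a2 was 0.76, and with the others it was between 0.12 (Scp2) and 0.58 (Fabp1).

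The largest shared deviations were in 3 livers. NCACS mouse 13 was below its group's mean in all 6 genes, by a mean deviation of -0.68 on the log2 scale, and CACS mouse 20 was below in all 6, with -0.79. CACS mouse 18 was above in all 6, with 0.85. In the other 7 livers the mean deviation was between -0.21 and 0.26. The median r of the 15 pairs was between 0.70 and 0.86 when each liver was left out in turn. It was 0.15 with those 3 livers left out together, when pairs ranged from -0.47 to 0.71 over 7 livers. Because the 3 were picked for the largest shared deviations, leaving them out lowers r by construction.

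**Figure D3:**
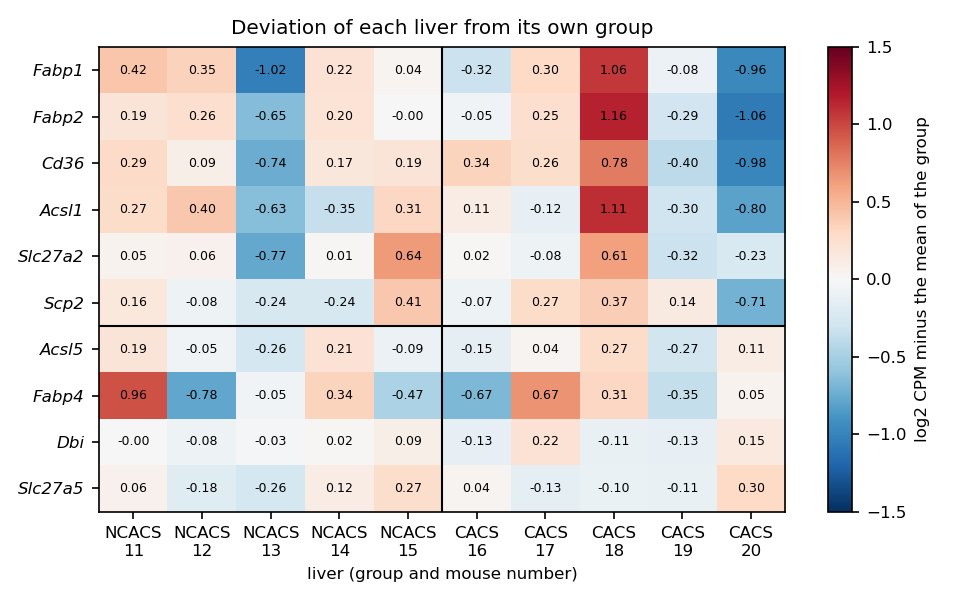
Deviation of each gene in each liver from the mean of its own group, in log2 CPM, as coloured and numbered cells (red above, blue below the mean), with genes in rows and the 5 NCACS and 5 CACS livers in columns. The first 6 rows are blue in NCACS mouse 13 and CACS mouse 20 and red in CACS mouse 18, while Dbi stays between -0.13 and 0.22 in every liver.

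Other PPARα target genes were compared with the members in the same way. Of 25 genes on a list of PPARα targets, mostly enzymes of fatty acid oxidation (such as Cpt1a and Ehhadh) but also others such as Plin2, Vnn1, Angptl4, Fgf21 and Pdk4, 23 had an r, on the same group-centred values, of at least 0.7 with Cd36, which is 92.0% against 5.76% of all tested genes. With Acsl1 it was 21 (84.0% against 2.88%), and with Fabp1 20 (80.0% against 4.36%). Fabp2 and Slc27a2 also had 20 each, and Scp2 had 11. For Acsl5 there was 1 such gene, and for Dbi, Fabp4 and Slc27a5 there were 0. Without the same 3 livers the shares were lower, at 40.0% for Acsl1 (4.22% of all tested genes), 32.0% for Slc27a2 (10.03%), 28.0% for Cd36 (6.65%), 12% each for Fabp2 and Scp2 (6.62 and 4.94%) and 4% for Fabp1 (5.99%).

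Between groups, none of these 25 targets passed the threshold in edgeR's test, against 3.80% of all genes tested, a share at which 25 genes can readily hold none. In CACS livers 15 were fitted lower and 10 higher, with 3 at an unadjusted p under 0.05 in that test and a median log2 fold change of -0.03.

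Relatives of the members were taken by family, 95 genes in 6 lists, of which 83 had enough counts for the test. In CACS livers 2 of them were higher and 1 lower, so 3 of 83 passed, against 3.80% of all genes, and DESeq2 passed 6 of the 89 it tested, against 8.87%. Neither count is above its background. Among the other acyl-CoA synthetases, 1 of 10 tested was lower. This was Acss2, which makes acetyl-CoA from acetate in the cytosol, at 225, 158, 201, 179 and 120 CPM in NCACS mice 11 to 15 and 58.4, 76.3, 54.6, 57.4 and 96.3 CPM in CACS mice 16 to 20. The groups did not overlap, and the fitted difference was -1.36 on the log2 scale (standard error 0.198, adjusted p = 0.00833 by edgeR's test). Acss2 passed in all 10 fits on 9 mice. Acsm1 and Acsm5, the medium-chain synthetases with the highest counts, had log2 fold changes of -0.06 and -0.14 (adjusted p = 0.828 and 0.550 by edgeR's test).

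Other binding proteins, uptake genes and thioesterases gave no call. With 3.80% of all genes tested past the threshold, lists this short can readily hold none, so nothing is read from these counts. Of 7 tested relatives that bind fatty acids or acyl-CoA, 0 passed, and Acbd5, a peroxisomal acyl-CoA binding protein, was at -0.52 on the log2 scale (adjusted p = 0.178 by edgeR's test) while Acbd4 was at -0.04 (adjusted p = 0.888). Of 11 tested uptake genes 0 passed, with log2 fold changes of -0.13 for hepatic lipase, Lipc, and 0.05 for Got2, a transaminase that also binds fatty acids (adjusted p = 0.724 and 0.837). Mfsd2a, a lysophospholipid transporter named here after its values were seen, had the largest fitted difference of these, at 11.7 to 100 CPM in NCACS mice against 97.1 to 322 CPM in CACS mice (log2 fold change 1.74, adjusted p = 0.107 by edgeR's test). Of 13 tested genes on the list of acyl-CoA thioesterases and their relatives, 0 passed. Acot12 and Baat, the 2 with the highest mean CPM, had log2 fold changes of 0.03 and 0.02 (adjusted p = 0.950 and 0.958 by edgeR's test).

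Regulators of these genes gave 2 calls of 17, against 3.80% of all genes tested. Because the list is short and was chosen with earlier results known, nothing is read from this count. Hnf4a, a nuclear receptor of hepatocyte identity, averaged 632 ± 42.5 CPM in NCACS mice against 891 ± 116 CPM in CACS mice (SD, n = 5 each; log2 fold change 0.50, adjusted p = 0.0435 by edgeR's test). Foxo1, a transcription factor that insulin restrains, was 36.4 ± 6.18 and 53.9 ± 5.97 CPM (log2 fold change 0.57, adjusted p = 0.0375). Both calls were close to the threshold, and each remained in 1 of the 10 fits on 9 mice, with adjusted p up to 0.0974 for Hnf4a and 0.0784 for Foxo1. Ppara itself had 99.0 ± 26.5 and 86.7 ± 22.7 CPM (log2 fold change -0.19, adjusted p = 0.661), and its partner Rxra differed by 0.05 on the log2 scale (adjusted p = 0.872).

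The extent of weight loss inside a group gave a measure that the comparison of groups does not use. The slope of log2 CPM on weight change, with group means removed, was tested for the 10 members by a two-sided exact permutation within groups (14400 pairings, smallest possible p of 0.000139), and 0 of 10 passed after Benjamini-Hochberg adjustment over the 10. Fabp4 had the lowest p, with a slope of 0.0973 log2 CPM for each percent of body weight (exact permutation p = 0.158, adjusted p = 0.825). For Acsl5 the slope was 0.0279 (exact permutation p = 0.190, adjusted p = 0.825), and for Dbi it was 0.00612 (exact permutation p = 0.485, adjusted p = 0.926). Fitted in each group alone, the slope had the same sign in both for Fabp4 (0.0990 in NCACS and 0.0864 in CACS mice). It had opposite signs for Acsl5 (0.0366 and -0.0286) and for Dbi (-0.0041 and 0.0725). Weight changes spanned few percent within CACS mice, so slopes there are poorly determined.

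**Figure D4:**
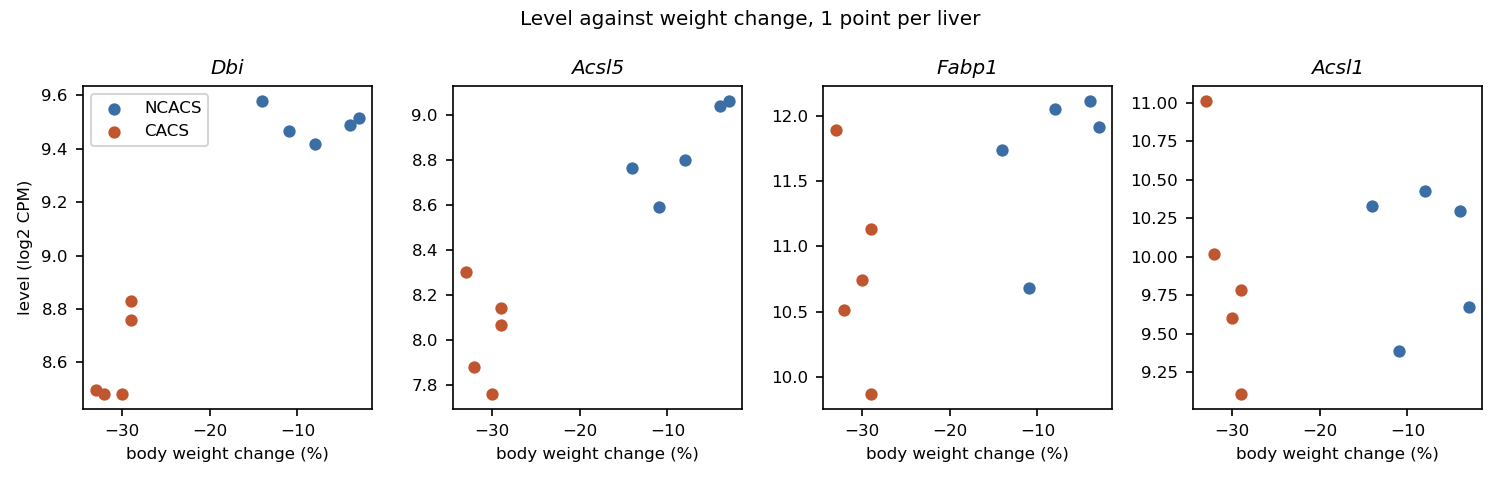
Level of 4 genes (log2 CPM, vertical axes of different range that do not start at 0) against body weight change in percent, with 1 point a liver (NCACS blue, CACS orange). The levels of Dbi and Acsl5 do not overlap between the groups. The groups share no weight change, so they cannot be compared at equal weight loss. Fabp1 and Acsl1 spread over more than 1 log2 unit among CACS mice that differ by only a few percent in weight.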

How the data were processed

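RNA from 10 livers was measured by RNA-seq, 5 from NCACS and 5 from CACS mice, which the labels name as separate mice with no number shared between groups and no batch. The authors prepared strand-specific poly(A) libraries, aligned single-end reads to GRCm38 with STAR 2.4.1d, counted them per Ensembl gene with HTSeq 0.6.1 (versions from the submitters' processing notes) and deposited raw counts without normalization. The annotation release and the strand setting are not given in the sources used here, so overlapping and antisense genes are uncertain. The table holds 43629 genes, and 0 columns of values were left unused. Depth was 31459179 to 40746178 counts per liver.

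Symbols, coordinates and exon lengths (for RPKM) were taken from GENCODE M21, where 1081 identifiers, 70 of them tested, had no symbol. After filterByExpr and TMM normalization, all genes kept were tested with edgeR 4.0.16 (glmQLFit and glmQLFTest, no covariates, R 4.3.3), with Benjamini-Hochberg adjustment and a threshold of 0.05. Log2 CPM used a prior count of 2. Members were all named, and from each list of relatives the genes past the threshold and the 2 with the highest mean CPM, apart from some items that are not reported here. The members and all lists were chosen with earlier results of these data known. Promoters came from RefSeq (GRCm38.p6). The scripts were tested on simulated data.

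Alternatives were DESeq2 1.42.0, limma-voom (limma 3.58.1), RLE factors, raw library totals, library sizes without the 10 most abundant genes, no filter, at least 10 counts in every liver, a prior count of 0.5 for the slopes, and each mouse left out in turn. Leaving out NCACS mice 13 and 15 together, and the correlations with livers left out, were chosen after seeing the data.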

Additional observations from a re-analysis of the deposited data

Results flagged for a closer look

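Each of the 10 genes was examined in each group for a mouse whose gap to the nearest other mouse was more than 0.71 of the group's range in log2 CPM. This was the case for NCACS mouse 13, the lowest of its group, in 3 of 20 groups of values: Fabp1 (ratio 0.735), Fabp2 (0.715) and Cd36 (0.801). Chance gives about 1 such group in 20, and these 3 genes varied together, so they are not separate observations. Fabp1 was 1638 CPM in mouse 13 and 3410 to 4439 CPM in the other NCACS mice, and Cd36 was 20.9 CPM against 37.1 to 42.8 CPM. Without mouse 13 neither gene's log2 fold change passed the threshold in edgeR's test.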

How the results depend on the processing

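No paired analysis was possible because no mouse number occurs in both groups. Dbi and Acsl5 remained the 2 members past the threshold in every alternative run, leaving out each mouse included. The number of all genes past it, 538, moved to 1376 with DESeq2, to 132 without NCACS mice 13 and 15 (fewer samples), and to between 178 and 519 with 1 mouse left out. Related genes past it, 3 in the edgeR fit, were 6 with DESeq2 and between 1 and 2 with 1 mouse left out. The sign of Slc27a2 turned with limma-voom (0.0206) and without NCACS mice 13 and 15 (0.0145). With 1 mouse left out, log2 fold changes that changed sign ranged from -0.20 to 0.18 for Slc27a2, from -0.41 to 0.14 for Acsl1 and from -0.0725 to 0.52 for Fabp2. None of these had passed the threshold. No weight slope passed in any setting. Slopes whose sign turned with 1 mouse left out ranged from -0.0165 to 0.0605 log2 CPM per percent for Fabp1, -0.0325 to 0.0333 for Fabp2, -0.0391 to 0.0181 for Cd36, -0.0721 to 0.0250 for Slc27a2 and -0.00648 to 0.0441 for Slc27a5. The cause was not tested. Counting error limits Fabp4, with 144 to 514 counts per liver, more than the other members.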

Other observations

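Beyond the genes already described, markers of tissues that could be carried into the dissection (pancreas and lung), and of cholangiocytes, were low. Among them only Cela1 and Sftpa1 passed the threshold. Pancreatic acinar markers summed to 41.9 to 57.2 CPM in NCACS and 9.01 to 23.9 CPM in CACS livers, nearly all of it from Cela1 (log2 fold change -1.54, adjusted p = 0.0110 by edgeR's quasi-likelihood test), while Prss2, Cpa1, Ctrb1, Pnlip and Cel had at most 3 counts in any liver. Lung epithelium markers summed to 1.63 to 5.75 CPM in NCACS and 1.83 to 8.71 CPM in CACS livers. Of 3 tested, 1 passed the threshold, Sftpa1 (log2 fold change 1.27, adjusted p = 0.0323 by edgeR's test). The other tested markers went in different directions, Sftpc at 0.44 and Scgb1a1 at -0.97 (adjusted p = 0.836 and 0.670 by edgeR's test). Cholangiocyte markers summed to 33.5 to 52.6 CPM in NCACS and 20.3 to 49.4 CPM in CACS livers, with 0 of 5 past the threshold. Their part in the levels of the 10 genes was not tested.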
